A study of Mus musculus with 2 samples.

Results

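The proteasome genes were described on 2 Affymetrix arrays of mouse embryonic stem (ES) cell RNA, 1 labelled control KD and 1 labelled TET2 KD. A gene belonged if the platform annotation gave its probe set a single symbol that starts with Psma, Psmb, Psmc, Psmd, Psme, Psmf or Psmg and goes on with a number. That held for 47 of the 17097 genes with a symbol of their own: 19 core genes (Psma and Psmb), 19 cap genes (Psmc and Psmd), 4 named Psme, and 5 for the inhibitor-like protein PI31 (Psmf1) and for assembly chaperones (Psmg). The pattern also takes in Psmc3ip, a protein of meiotic recombination, and Psme3ip1, a protein that binds Psme3. Neither is a part of the proteasome, which leaves 45 genes of the particle, its activators and its assembly. The annotation pairs no probe set with Psmc6, Psmd10 or Psme4, and these 3 were not analysed here.

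The proteasome is the particle that degrades proteins marked with ubiquitin. Its core is a barrel of stacked rings, in which the outer alpha rings gate the entrance and the inner beta rings hold the cutting sites. A cap binds ubiquitin chains, removes them, unfolds the protein and feeds it into the barrel, and alternative activators can take the place of the cap. The subunits are needed in fixed proportions, and the transcription factor NRF1 (Nfe2l1) raises many of these genes together when the particle is inhibited. In lymphoid cells and after interferon, 3 beta subunits are replaced by the immunoproteasome subunits Psmb8, Psmb9 and Psmb10.

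Both samples were C57BL/6 mouse ES cells, kept without feeder cells on gelatin in serum and ESGRO, and carried a lentivirus with a hairpin driven by the U6 promoter. The control KD cells had a scrambled hairpin and the TET2 KD cells a hairpin against Tet2, which encodes a 5-methylcytosine dioxygenase, and both were kept in puromycin for 72 hours. Each array received cRNA made from 2 µg of total RNA. With 1 array per group there was no replicate, so the differences below carry no error and were not tested, and 1 array per group limits their precision.

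Several facts of the whole table bear on every value below. Tet2 itself differed little between the arrays: its probe sets read 5.62 and 5.48 in control KD and 5.57 and 5.22 in TET2 KD, or 96.2% and 83.7% of control. A 2-fold loss of Tet2 is therefore not seen, so control KD and TET2 KD stand below for the library labelled control KD and the library labelled TET2 KD, and no direction is assigned to a loss of Tet2. Of 15 ES cell marker genes with a probe set, 10 were at or above the floor of 2.55, the median of all values. Among these were Zfp42 (10.56 and 10.58) and Utf1 (9.22 and 9.22). The other 5 lay under it, among them Pou5f1 (1.07 and 1.29) and Nanog (1.01 and 0.97). Neuron markers (8 of 10) and oligodendrocyte markers (7 of 7) were at or above it too. The brightest of these were Stmn2 of neurons (10.34 and 10.35) and Mbp of oligodendrocytes (10.32 and 10.22). The share over all 17097 genes was 65.4%, beside 66.7% of the ES cell markers. Such counts alone therefore do not show which cell types were present. The summed linear signal of 7 anterior pituitary markers was 3595 in control KD and 65.8 in TET2 KD. Prl and Gh, the brightest of the 7 in control KD, weigh most in this sum. The 4 markers with a mean at or above the floor were all lower in TET2 KD by 2-fold. Cga alone of the 7 went the other way, at 1.29 and 2.80, with a mean under the floor. In RNA of whole cultures, fewer cells of a type and less RNA per cell cannot be told apart. The part of these marker differences in the proteasome values was not tested. A total of 1892 of 45141 probe sets shared both of their values with another probe set, and whether every value stands beside its own name was not tested.

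Of the 47 genes, 44 (93.6%) had a mean of both arrays at or above the floor, beside 65.4% of all 17097 genes, and all 44 were above it on each array. The median log2 signal of those 44 was 7.67 in control KD and 7.65 in TET2 KD, where those of all 11174 genes at or above the floor were 5.441 and 5.399. The 3 genes under the floor were Psma8, Psmb11 and Psmd3. None of the 44 differed by 2-fold between the arrays. Of all 11174 genes, 1.17% passed 2-fold upward in TET2 KD and 1.41% downward. At 1.5-fold, Psme3 (1 of 44) was higher and 0 of 44 were lower, beside backgrounds of 1.78% and 5.42%. The log2 difference, TET2 KD minus control KD, was within 0.25 of 0 for 42 of 44 proteasome genes (95.5%) and for 81.4% of all genes. With the floor raised to the 75th percentile, 4.90, which leaves brighter genes, the shares were 95.1% and 85.6%.

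**Figure D1:**
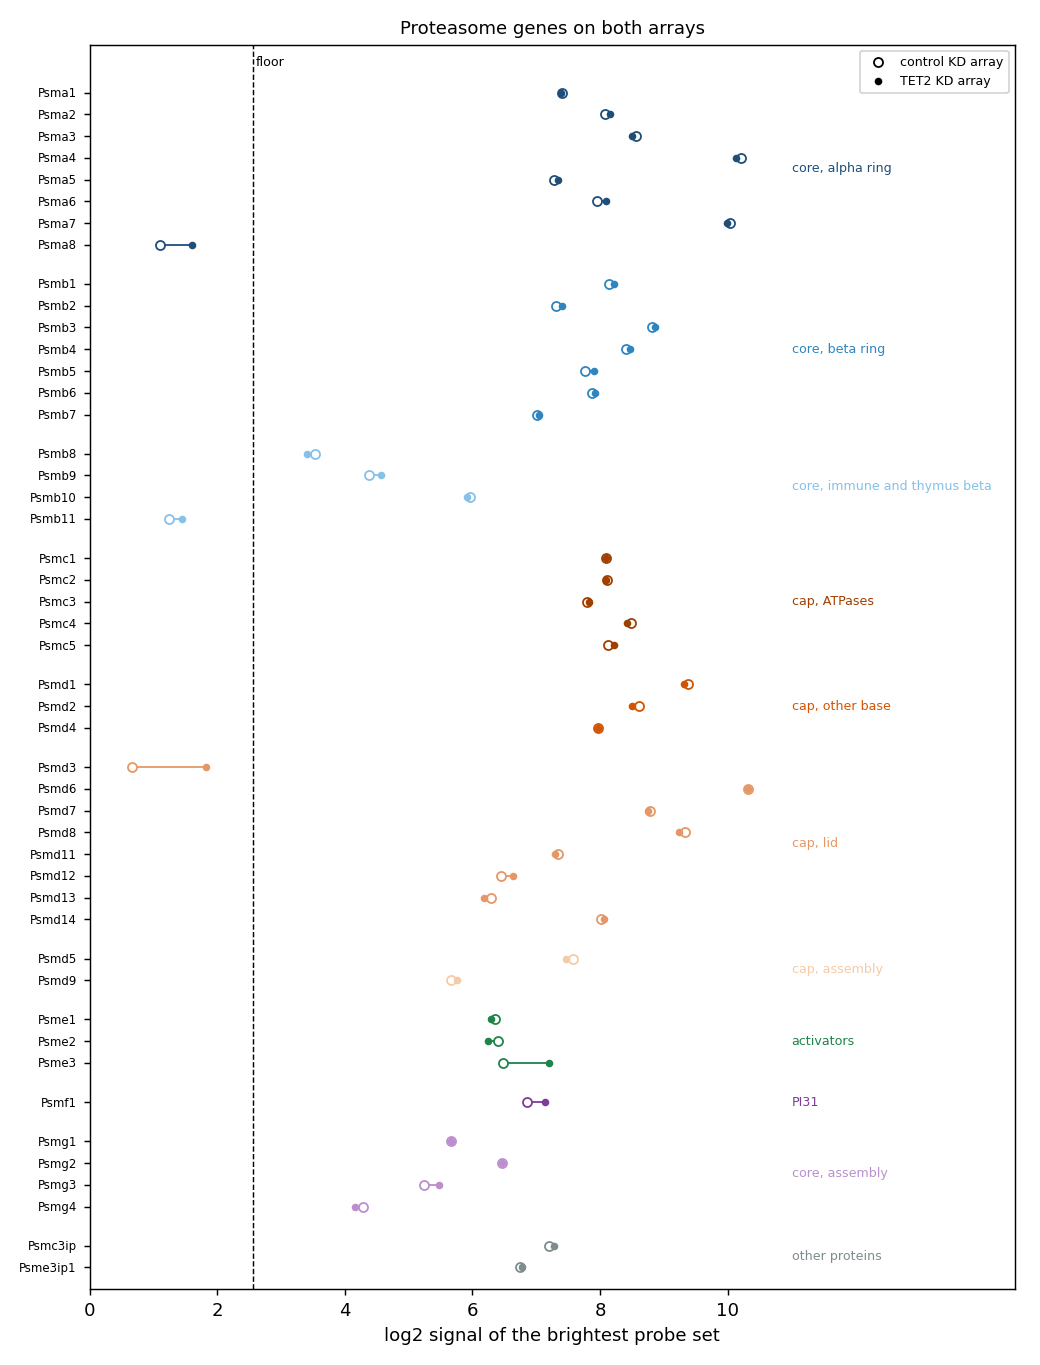
Log2 signal of the brightest probe set of each of the 47 genes (horizontal axis) in control KD (open circles) and TET2 KD (filled circles), 1 array each, ordered by role. Most pairs of circles touch, the longest line at or above the floor (dashed, 2.55) is that of Psme3, and Psma8, Psmb11 and Psmd3 lie to the left of the floor.

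The promoters of 4 genes that stand for the different groups are shown first: Psmb5, the core subunit with the chymotrypsin-like site, Psmb8, its immunoproteasome replacement, Psmd12, the cap gene with the largest difference among those at or above the floor, and Psme3, the member past 1.5-fold. They are the 250 bases before the annotated start, read on the gene's own strand, from RefSeq on GRCm38.p6. Capitals mark matches on either strand to TGACNNNGC (the core of the antioxidant response element, which NRF1 binds), GGCGGG (the GC box), CCAAT (the NF-Y box) or TTCNNNGAA (the STAT site). The windows lie at chr14:54617996-54618245 on the minus strand, chr17:34197945-34198194 on the plus strand, chr11:107479278-107479527 on the plus strand and chr11:101315963-101316212 on the plus strand, in that order, and none overlaps an annotated gene.
Psmb5: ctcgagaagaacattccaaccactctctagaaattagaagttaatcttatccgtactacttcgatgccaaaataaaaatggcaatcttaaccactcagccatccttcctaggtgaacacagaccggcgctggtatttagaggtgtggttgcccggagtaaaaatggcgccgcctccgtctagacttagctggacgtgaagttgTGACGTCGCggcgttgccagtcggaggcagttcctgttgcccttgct
Psmb8: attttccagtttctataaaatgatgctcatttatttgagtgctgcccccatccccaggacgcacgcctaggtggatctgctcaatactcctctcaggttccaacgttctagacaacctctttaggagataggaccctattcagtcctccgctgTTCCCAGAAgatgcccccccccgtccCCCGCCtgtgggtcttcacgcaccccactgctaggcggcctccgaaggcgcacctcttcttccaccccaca
Psmd12: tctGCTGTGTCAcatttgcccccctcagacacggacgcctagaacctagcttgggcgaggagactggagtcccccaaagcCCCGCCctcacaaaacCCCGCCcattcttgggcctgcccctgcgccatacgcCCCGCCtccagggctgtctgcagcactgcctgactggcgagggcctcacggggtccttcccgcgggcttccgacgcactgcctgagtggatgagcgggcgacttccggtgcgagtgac
Psme3: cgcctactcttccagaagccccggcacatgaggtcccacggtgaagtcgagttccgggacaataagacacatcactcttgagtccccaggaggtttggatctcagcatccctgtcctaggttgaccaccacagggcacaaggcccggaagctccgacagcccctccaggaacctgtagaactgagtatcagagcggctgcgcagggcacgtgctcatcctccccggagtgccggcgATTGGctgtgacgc

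Psmb5 held a TGACNNNGC match 47 to 39 bases before its start, and Psmd12 held one on the other strand 247 to 239 bases before. Psmd12 also held 3 GC boxes on the other strand. In the Psmb8 window, a TTCNNNGAA match lay 97 to 89 bases before the start and a GC box 71 to 66 bases before. The Psme3 window held a CCAAT box, on the other strand, 14 to 10 bases before the start, and none of the other 3 motifs. RefSeq windows were found for 39 of the 47 genes, 43 windows in all, and were searched on both strands for 8 motifs beside all 32851 windows of the table. TGACNNNGC occurred in 4 of 43 windows (9.30%), those of Psmb5, Psmb6, Psmd9 and Psmd12, and in 10.2% of all windows. GGCGGG occurred in 27 of 43 (62.8%) and in 32.5% of all windows, and CCAAT in 15 (34.9%) and 33.8%. The looser TGANNNNGC, which contains TGACNNNGC, occurred in 18 (41.9%) and 35.2%, and the stricter TGACTCAGC in 0 of 43 and 0.390%. TTCNNNGAA was found in 2 windows (4.65%, and 7.02% of all), CTCGCGAG in 1 (2.33%, and 0.761%) and GCCATNTTG in 0 (1.33% of all). A match is a run of letters in this window and says nothing of binding.

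The 7 ubiquitous alpha ring genes were all well above the floor and near 0 in difference. Psma4 read 10.20 in control KD and 10.14 in TET2 KD, and Psma7 10.03 and 9.98. Psma3 read 8.558 and 8.503, and Psma2 8.08 and 8.16. Psma6 had the largest difference of these 7, at 7.96 and 8.10, or 0.14. Psma1 read 7.41 and 7.39, and Psma5 7.28 and 7.34. Their differences ran from -0.07 to 0.14 with a median of -0.01, and 3 were above 0 and 4 below, so the ring showed no common direction. Psma8, the testis counterpart of Psma7, read 1.11 and 1.60, under the floor on both arrays, where its difference of 0.49 has no fold. Of 12 testis germ cell markers, 5 (41.7%) were at or above the floor, beside 65.4% of all genes. Sycp3 of meiosis (8.24 and 8.28) was among these 5. The other 7 markers were under it on both arrays, among them Tnp1 of late sperm cells (0.74 and 0.74).

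The 7 constitutive beta ring genes all read slightly higher in TET2 KD. Psmb5, the chymotrypsin-like subunit, read 7.76 and 7.90, a difference of 0.14, or 110% of control. Psmb6, the caspase-like subunit, read 7.87 and 7.92, and Psmb7, the trypsin-like subunit, 7.01 and 7.04, so that the 3 catalytic subunits differed by 0.14, 0.05 and 0.03. The structural subunits Psmb1 (8.13 and 8.21), Psmb2 (7.31 and 7.40), Psmb3 (8.81 and 8.86) and Psmb4 (8.41 and 8.47) differed by 0.05 to 0.09. The median of the 7 was 0.06, and 47.4% of all genes at or above the floor were above 0. All 7 also stayed above 0 after median centring (0.05 to 0.16) and quantile normalization (0.04 to 0.14), where 53.6% and 54.4% of all genes were above 0. Median centring raised every difference by the same amount, so it could not turn these negative. In the mean of all probe sets (0.03 to 0.14) only Psmb3 could change, since the others have a single probe set. Without cross-matching probe sets (_s_, _x_ and _a_) the lowest of the 7 was 0.0031. As deposited, all 7 differences are smaller than 0.146, the robust SD of the differences over all genes.

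The immunoproteasome genes went in different directions. Psmb8, which replaces Psmb5, read 3.53 and 3.40, and its other probe set 1.31 and 1.31, under the floor. Psmb9, which replaces Psmb6, read 4.38 and 4.57, a difference of 0.19. A further probe set read 3.57 and 3.87, and the last, under the floor, 1.55 and 1.61. Psmb10, which replaces Psmb7, read 5.97 and 5.91. The differences of these 3 genes, -0.12, 0.19 and -0.06, share no sign, and none reached 1.5-fold. Psmb11, the subunit of the thymus proteasome, was under the floor at 1.252 and 1.450. Beside 65.4% of all genes, 3 of 6 thymus epithelium markers (50%) were at or above it. Those were Ccl25 (4.41 and 4.38), Prss16 (4.65 and 4.87) and Krt5 (4.06 and 3.57), while Foxn1, the transcription factor of that tissue, read 1.105 and 1.159. Of 18 leukocyte markers, 10 (55.6%) were at or above the floor and 8 under it on both arrays. The summed linear signal of the 18 was 256 and 244. Ptprc, the leukocyte antigen CD45, read 3.08 and 3.17, and Cd74, the class II invariant chain, 3.88 and 3.72. Their part in the immunoproteasome values was not tested.

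**Figure D2:**
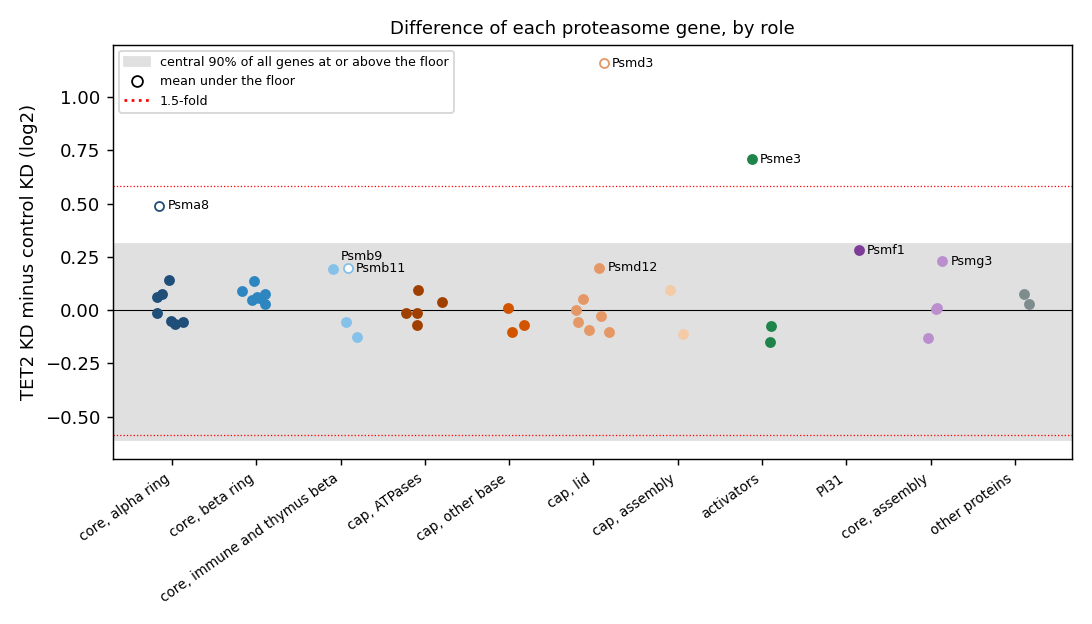
Log2 difference, TET2 KD minus control KD, of each of the 47 genes (vertical axis) by role, with open circles for the 3 genes under the floor. The grey band is the central 90% of all 11174 genes at or above the floor, from -0.61 to 0.31, and Psme3 alone among the filled circles lies outside it.

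In the cap, the ATPases that unfold the substrate read almost the same on both arrays. Psmc1 read 8.10 and 8.08, Psmc2 8.10 and 8.09, and Psmc3 7.79 and 7.83. Psmc4 read 8.48 and 8.42, and Psmc5 8.13 and 8.22. The 5 differed by -0.07 to 0.09 with a median of -0.01. By the deposited scale 2 were above 0, and after median centring 4 were, so their signs depended on the scaling.

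The non-ATPase genes of the base were Psmd1 and Psmd2, large scaffolds, and Psmd4, a ubiquitin receptor. Psmd1 read 9.38 and 9.31, a difference of -0.07. Psmd2 read 8.604 and 8.504, a difference of -0.10, and Psmd4 read 7.96 and 7.97. A second Psmd2 probe set, under the floor at 1.15 and 1.42, went the other way, and the average over both Psmd2 probe sets was 0.08.

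Of 8 lid genes 7 were above the floor, with differences from -0.10 to 0.20. Psmd14, the enzyme that cuts ubiquitin off the substrate, read 8.02 and 8.07, and its partner Psmd7 8.78 and 8.76. Psmd6 read 10.32 on both arrays, a difference of 0.0024. Psmd8 read 9.33 and 9.23, Psmd11 7.34 and 7.29, and Psmd13 6.28 and 6.18. Psmd12 read 6.44 and 6.64, the largest difference of the cap genes at or above the floor at 0.20, or 115% of control. The remaining lid gene, Psmd3, an integral subunit of the cap, read 0.66 and 1.82. It has 1 probe set, both values lie under the floor although its partners in the lid read 6.18 or more, and its difference of 1.16 is therefore given no fold.

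The chaperones that assemble the base, Psmd5 and Psmd9, read 7.58 and 7.47 and 5.67 and 5.76, differences of -0.11 and 0.09. Averaged over its 3 probe sets Psmd9 differed by -0.08. Psmc3ip, counted with the cap by its symbol, read 7.20 and 7.28. Over the 18 cap genes at or above the floor the median difference was -0.01, and 8 were above 0 and 10 below. Over the 17 core genes it was 0.05, and 11 were above 0 and 6 below. Among the 11 were the 7 constitutive beta genes.

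Among the activators, 1 gene stood apart from the others in its brightest probe set. Psme1 and Psme2, which form the interferon-induced activator PA28 of the cytoplasm, read 6.36 and 6.28 and 6.39 and 6.24, differences of -0.07 and -0.15. Psme2 had the lowest difference of the 44 genes, at 90.01% of control. Psme3, the nuclear activator PA28 gamma, read 6.48 in control KD and 7.19 in TET2 KD, a difference of 0.71, or 1.63-fold. The other Psme3 probe set read 3.84 and 3.93, a difference of 0.09, so the larger difference is seen with 1 of its 2 probe sets and is 0.40 in their mean, or 1.32-fold. Psme3ip1 read 6.74 and 6.77. The median of the 4 genes named Psme was -0.02, and that of the 3 activators alone -0.07. The median log2 signal of the 4 was 6.44 and 6.53, beside 7.87 and 7.92 for the core and 8.06 and 8.08 for the cap. Probe sets bind their targets with different strength, so no order of abundance is read from these medians.

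Psmf1, the PI31 protein that binds the core and inhibits it in the test tube, was read by 4 probe sets that disagreed in sign. The brightest read 6.85 and 7.13, a difference of 0.28. The others read 4.51 and 4.26, 3.70 and 3.40, and 2.82 and 2.57, differences of -0.25, -0.29 and -0.25, and the mean of all 4 was -0.13. No direction can be given to Psmf1 from these. Among the Psmg chaperones, which pair up to build the alpha ring, Psmg1 read 5.66 and 5.67 and Psmg2 6.46 and 6.46. Psmg3 read 5.25 and 5.48, a difference of 0.23, and Psmg4, its partner, 4.29 and 4.15, a difference of -0.13.

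**Figure D3:**
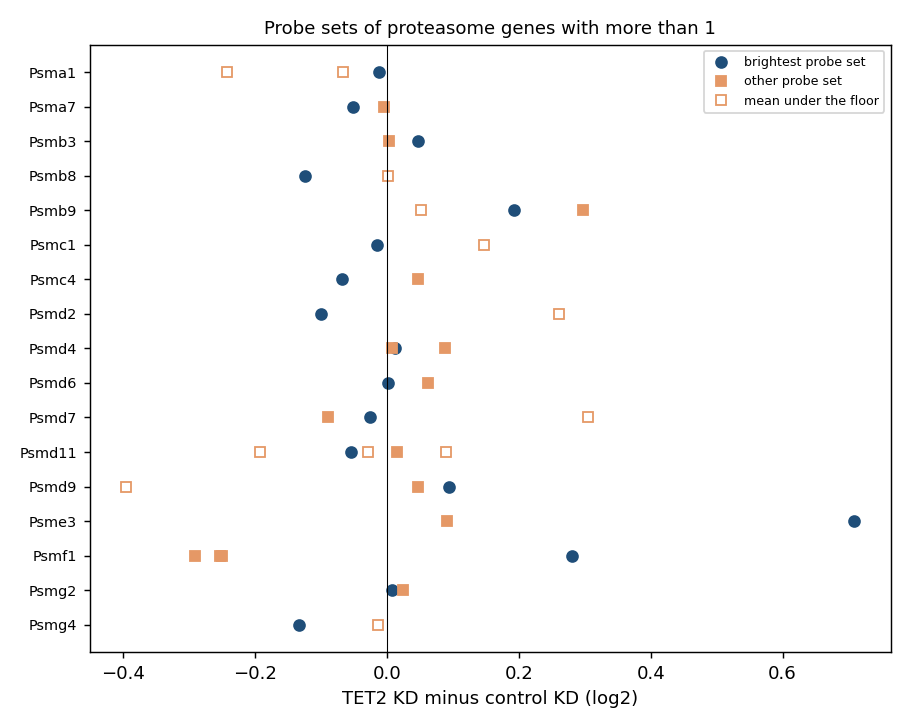
Log2 difference of every probe set of the 17 genes with more than 1, with circles for the brightest probe set, squares for the others and open squares for means under the floor. Psmf1 has its circle at 0.28 and its 3 squares below 0, and Psme3 has its circle at 0.71 and its square at 0.09.

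The 47 genes had 74 probe sets in all, of which 59 reached the floor, and 17 genes had more than 1. Probe sets of the same gene differed in level by a median of 3.43 on the log2 scale and by up to 7.36 for Psmd7, so a low signal of 1 probe set does not show a low level of the RNA. Of 12 genes with at least 2 probe sets that reached the floor, 9 had differences of 1 sign and 3 (Psmc4, Psmd11 and Psmf1) had both signs. The values of 4 brightest probe sets were shared exactly with another probe set: that of Psma1 with Hltf, that of Psmc4 with Ik, that of Psme1 with Mplkip, and that of Psmc3 with a probe set without a name. Without probe sets of this kind 41 proteasome genes were at or above the floor and the median difference was 0.03, against 0.01 with them.

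Across the 44 genes the signals of the arrays correlated at r = 0.995, and across all 11174 genes at r = 0.975. Both are across genes, which are not independent replicates, and share the spread of levels between probe sets. The SD of the differences was 0.144 over the 44 genes and 0.385 over all genes. The former includes Psme3 and the latter includes differences from -6.74 to 5.25. The robust SD, which such extremes affect less, was 0.100 and 0.146. With the floor at the 75th percentile, which leaves brighter genes, it was 0.099 and 0.126. Even there the proteasome genes were brighter, with median signals in control KD of 7.79 against 6.34.

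**Figure D4:**
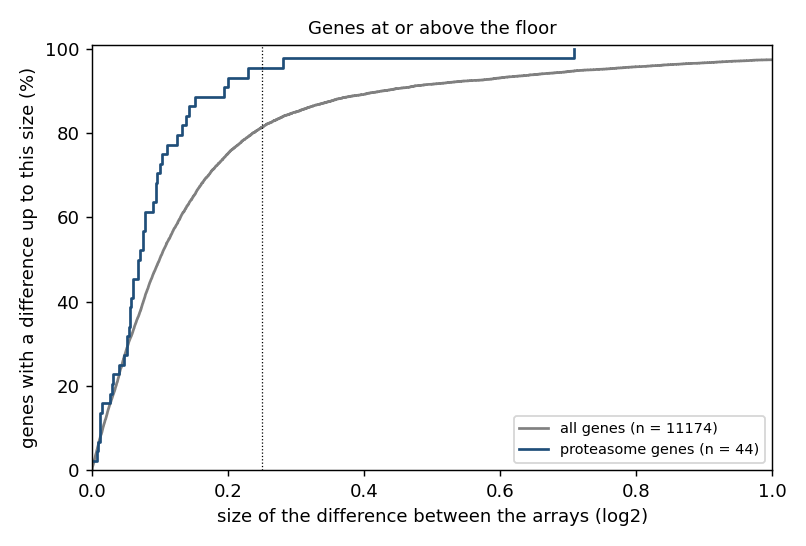
Share of genes (percent, vertical axis) whose difference between the arrays is up to a given size (log2, horizontal axis), for the 44 proteasome genes and all 11174 genes at or above the floor. At 0.25 (dotted line) the proteasome curve is at 95.5% and the curve of all genes at 81.4%.

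Genes that work with the proteasome are given next, each list by its members at or above the floor. Of 7 other proteasome genes, Txnl1, a thioredoxin-like protein of the cap, read 6.61 and 6.85 and Uchl5, a deubiquitinase of the cap, 6.87 and 7.07. Ecpas, a scaffold protein, was the 1 gene of the 7 below 0 (-0.06). Pomp, which matures the core, read 9.23 and 9.25, and Sem1, a small lid subunit, 8.53 and 8.58. Their median was 0.04 and none passed 1.5-fold.

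Of the transcription factors of these genes none passed 1.5-fold. Nfe2l1 (NRF1) read 7.47 and 7.39, and Nfe2l2 (NRF2), its relative in the oxidative stress response, 8.23 and 8.18. Of the 10 genes of this list, the small MAF partners Mafk (-0.36) and Maff (-0.20) had the lowest differences and Mafg (0.17) and Nfya (0.16, or -0.04 averaged over its probe sets) the highest. Of 9 NRF2 target genes, 1 was past 2-fold upward, beside 1.17% of all genes: Hmox1, heme oxygenase, at 5.71 and 6.81. By their brightest probe sets the rest lay between -0.31 for Slc7a11 and 0.10 for Srxn1, with Gsr at -0.22. The list's median was -0.13. Srxn1 differed by 0.30 averaged over its 4 probe sets and by 0.97 without cross-matching probe sets (_s_, _x_ and _a_). Averaged over their probe sets, Slc7a11 differed by -0.09 and Gsr by -0.12.

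Ubiquitin-conjugating enzymes were read by few genes, whose values depended on the probe set. Ube2n, the conjugating enzyme of non-degradative ubiquitin chains, read 9.42 and 8.56, a difference of -0.86. Ube2d3, a conjugating enzyme with many partner ligases, read 7.93 and 7.32, a difference of -0.61, and Ube2k read 7.61 and 7.78. By their brightest probe sets 2 of 3 genes were thus lower by 1.5-fold, beside 5.42% of all genes, and 6 of the 10 genes listed have no probe set of their own. Averaged over its 2 probe sets Ube2n differed by -0.39, and Ube2d3 averaged over its 7 by -0.26, so neither passed 1.5-fold. Without cross-matching probe sets Ube2d3 turned to 0.33. Of 11 ubiquitin receptors and extraction factors, Ubqln4, a shuttle protein, was lowest at 7.34 and 6.87 (-0.47, or -0.17 averaged over its probe sets), followed by Nsfl1c (-0.05). Ufd1 (0.10) and Ube4b (0.08, or -0.04 averaged) were highest, and the median was 0.00. This order holds for the brightest probe sets. In averages over probe sets Nbr1 was lowest at -0.38, against 0.00 by its brightest. Ubqln1 differed by 0.07, or by -0.41 without cross-matching probe sets.

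At or above the floor, the listed genes of MHC class I and peptide loading and of the interferon response did not move together. Of 6 genes of MHC class I and peptide loading, Calr (0.31) and Pdia3 (0.15) were highest and H2-K1, a class I heavy chain, was the 1 gene below 0, at 6.24 and 5.97; averaged over its probe sets H2-D1 was also below 0 (-0.06). Of 7 interferon genes, Gbp2, a guanylate-binding protein, read 3.53 and 4.91 (1.38). It was past 2-fold upward by its brightest probe set, beside 1.17% of all genes, but not in the average of both (0.71). Irf9 differed by 0.26, while Gbp3 (-0.11) and Irf1 (-0.10) were below 0. The median of the 7 was -0.01.

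Other multi-subunit complexes gave a scale for these values. The 7 genes of the CCT chaperonin at or above the floor were all above 0, from 0.0041 for Cct2 to 0.20 for Cct5, with Cct4 at 0.19 and a median of 0.11. They too stayed above 0 after quantile normalization (0.03 to 0.20), where 54.4% of all genes were above 0. Median centring raised every difference by the same amount, so it could not turn the CCT genes negative. Of 9 genes of the COP9 signalosome, a complex related to the lid, 4 were above 0 and 5 below, from -0.17 for Cops4 and -0.12 for Cops7b to 0.08 for Cops6 and 0.19 for Cops7a, with a median of -0.02. The differences of the constitutive beta genes, 0.03 to 0.14, lie within the range of the CCT genes.

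**Figure D5:**
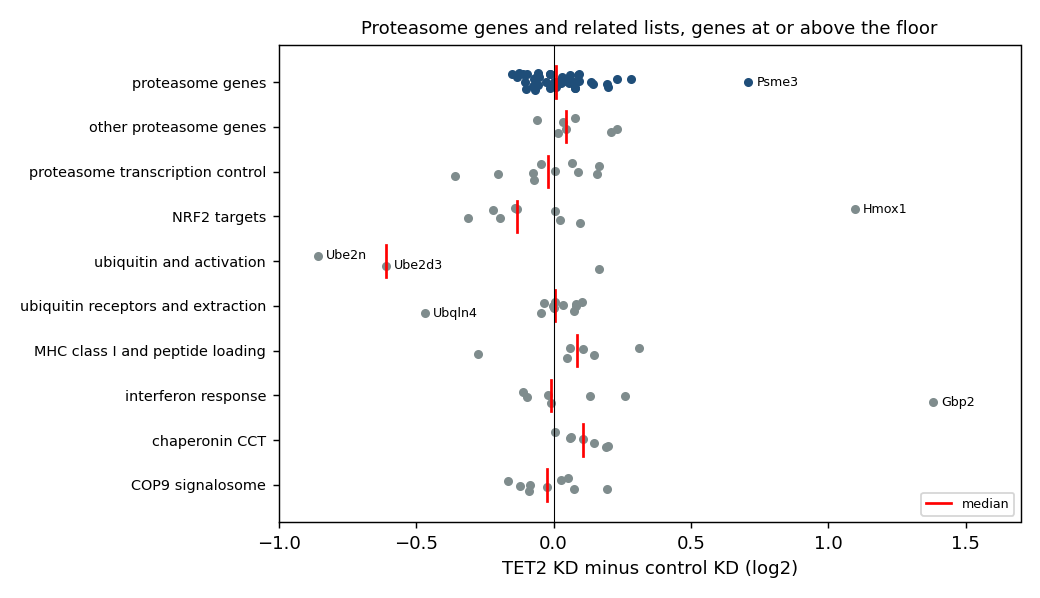
Log2 difference of each gene at or above the floor (circles) for the 44 proteasome genes and 9 lists of related genes, with the median of each list as a red bar. The proteasome circles lie between -0.15 and 0.71, and the named circles include Gbp2 at 1.38 and Ube2n at -0.86 by their brightest probe sets.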

How the data were processed

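The deposited table holds 1 value per probe set and array, and was taken as log2 signal. The authors used Affymetrix Expression Console, according to the submitters' processing notes. The log base was inferred, since natural logarithms would put the control KD maximum above the 65535 of a 16-bit scanner. How probes were summarised, corrected for background and normalized is not given in the sources used here.

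A gene was represented by its probe set with the highest mean, and probe sets with several symbols were left out. As floor served the median over the 45037 non-control probe sets. A difference counted at 2-fold (log2 of 1), and 1.5-fold was an alternative. No test was made, since each group has 1 array. Members and lists were chosen with earlier results of these data known. Genes named were those past 1.5-fold, the 3 highest and 3 lowest of each group, the tissue-specific core genes and, of each related list, the 2 largest differences each way, and the other members were added after their values were seen. Of 190 related genes and markers, 163 had a probe set. Promoters came from RefSeq on GRCm38.p6. The procedure was tested on simulated data. Python 3.11.15, numpy 2.4.6, pandas 2.3.3 and matplotlib 3.10.9 were used.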

Additional observations from a re-analysis of the deposited data

How the results depend on the processing

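Alternatives covered the scaling, the floor, the probe set rule, the fold threshold, the 2 genes that are no part of the proteasome and probe sets with shared values, 12 settings in all, and a value counted as moved when it changed by over 0.146, the robust SD of all genes. Median differences kept within it: 0.01 to 0.03 for all proteasome genes, 0.05 to 0.07 for the core, -0.01 to 0.03 for the cap and -0.07 to 0.03 for the activators. The limit is larger than each of these medians, so a change of sign could pass as not moved. The medians of the cap and of the activators did change sign between settings. The count past the threshold, 0 at 2-fold, was 1 at both lower thresholds, of which 1.5-fold is the upper (Psme3), and 1 with no floor (Psmd3). Median levels moved more. For all proteasome genes the median, 7.67 as reported, was 7.83 with the floor at the 75th percentile, 7.40 with no floor, 7.27 in the mean of all probe sets and with the lowest probe set above the floor, 7.38 without cross-matching probe sets, and 7.82 without Psmc3ip and Psme3ip1. The core median, 7.90, was 7.57 without cross-matching probe sets and with the lowest probe set. The cap median, 8.07, was 7.38 in the mean of all probe sets and 7.67 with the lowest. The activator median, 6.54, was 6.32 in the mean of all probe sets, with the lowest, and without Psme3ip1, and 6.76 without shared values. Of the values of single genes 16 moved and 400 did not, where Psme3 (0.71) was 0.09 and Psmf1 (0.28) was -0.25 with the lowest probe set. The 400 include values that could not move. The floor alone does not alter a gene's own value, and a gene with 1 probe set is read alike under every probe set rule. By the limit of 0.146, median centring and quantile normalization moved none of these medians or counts. Median centring shifts every difference alike by less than this limit, so it could move no difference. No paired analysis was possible because each group has 1 array. With no replicate and no scanner files, spread between cultures and signal over background could not be measured.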

Other observations

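Probe sets that the annotation joins to both Sirt3, a mitochondrial deacetylase, and Psmd13 belong to no comparison above. They read 4.79 in control KD and 4.86 in TET2 KD, and 1.81 and 1.71. The interferon-induced genes Ifit2 (1.29 and 2.77) and Ifit3 (1.39 and 2.73) had means under the floor but read above it in TET2 KD, while Ifit1 read 0.96 and 1.03.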
